A study of Homo sapiens with 5 samples.

Results

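Replication-dependent histone genes were taken as the protein-coding genes of human chromosome 6 between positions 26000000 and 28200000 (hg19) whose GENCODE symbols belong to the families H1-, H2AC, H2BC, H3C and H4C. The rule found 50 of 20162 protein-coding genes on chromosomes 1 to 22, X and Y. They comprised 6 genes for the linker histone H1, 11 for H2A, 12 for H2B, 10 for H3 and 11 for H4. One H4 gene carries its old symbol HIST1H4B in this annotation and was kept under that name, whereas H2BC7, H2BC8 and H4C6 were not analysed here. The cells were HCT116, a human colon cancer line, and a single ChIP-seq library (n = 1) represents each condition. ATF3 was precipitated from ATF3-WT cells treated with DMSO (ATF3-Ctrl), from ATF3-WT cells exposed to 1.5 μM camptothecin (CPT) over 4 h (ATF3-CPT) and, as the ATF3-KO library, from ATF3 knockout cells given DMSO. p53 was precipitated from p53-WT cells given the same CPT treatment (p53-CPT) and from p53-KO cells given DMSO (p53-KO), so that this pair of libraries differed in genotype and in treatment at once. Per the study's methods, the ATF3-KO line came from single clones after AAV-mediated recombination at exon 3 of both ATF3 alleles, so it may carry changes of its clone. All libraries were cross-linked with DSG and then with formaldehyde.

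Histone genes of this type supply the histones that package newly made DNA. They are transcribed mainly in S phase, they mostly lack introns, and their mRNAs end in a stem-loop instead of a poly(A) tail. Many H2A and H2B genes are arranged head to head around a common promoter. ATF3 is a stress-induced factor of the ATF/CREB family that recognizes the ATF/CRE core and, with partners, the AP-1 core, p53 is the transcription factor that responds to DNA damage, and CPT damages DNA by trapping topoisomerase I.

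The highest ATF3 peaks of the cluster lay on a short sequence that is shown here for that reason. The exact ATF/CRE core TGACGTCA, a palindrome that reads the same on both strands, occurred at 7 places within 1 kb of a member TSS. Each line gives the core in capitals with 20 bases on either side in lower case, read 5′ to 3′ along the strand of the first-named gene (GRCh37, which is hg19). The first 4 lines are the cores under an ATF3 peak in both wild-type libraries, the fifth is the core under an ATF3-CPT peak alone, and no listed ATF3 peak was centred within 100 bp of the last 2.
H4C5: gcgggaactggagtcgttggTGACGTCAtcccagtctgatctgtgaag
H4C8: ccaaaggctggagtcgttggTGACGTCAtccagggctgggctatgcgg
HIST1H4B: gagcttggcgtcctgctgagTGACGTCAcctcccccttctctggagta
H3C2: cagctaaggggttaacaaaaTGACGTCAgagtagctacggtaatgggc
H2BC12 and H2AC12: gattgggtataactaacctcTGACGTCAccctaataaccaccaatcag
H2AC14 and H2BC14: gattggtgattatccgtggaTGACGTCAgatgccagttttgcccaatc
H2AC16: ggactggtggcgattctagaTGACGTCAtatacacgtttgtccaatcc

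The H4C5 window lies at chr6:26204687-26204734 (plus strand) and its core 128 bp upstream of the TSS. The H4C8 window lies at chr6:26285866-26285913 (minus strand) with its core 24 bp upstream of the TSS, and the H3C2 window at chr6:26032463-26032510 (minus strand) with its core 160 bp upstream. The HIST1H4B window, at chr6:26026592-26026639 (minus strand), is the exception among these sites. Its core is 864 bp downstream of the TSS and lies past the end of the gene, in no annotated exon of a protein-coding gene. The other windows are chr6:27114709-27114756 (minus strand, 98 bp upstream of H2BC12 and 152 bp upstream of H2AC12), chr6:27782681-27782728 (minus strand, 150 bp upstream of H2AC14 and 96 bp upstream of H2BC14) and chr6:27832922-27832969 (plus strand, 150 bp upstream of H2AC16). H4C5 and H4C8 shared 24 identical bases in a run that includes the core, whereas the other pairs of cores shared between 8 and 12.

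The deposited lists gave a normalized tag count for each peak, which is the number of tags in the peak per 10000000 tags of the library. The wild-type and knockout ATF3 libraries held between 12820520 and 15457013 tags, and the p53 libraries held 3169743 (p53-CPT) and 1984941 (p53-KO). The tag limit of the peak calling was 9 in ATF3-Ctrl and ATF3-CPT, 11 in ATF3-KO, 7 in p53-CPT and 6 in p53-KO. On the normalized scale these limits were 6.95, 5.82, 8.58, 22.1 and 30.2. Listed values went below them, down to 5.4, 4.5, 6.2, 18.9 and 25.2 in the same order, so the limits were no sharp floor. Binding too weak to be called was not listed. Values of single peaks are therefore given with 95% exact Poisson intervals, which cover counting error only and say nothing of the spread between cultures.

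ATF3 peaks were found at 20 of the 50 histone genes (40.0%) in ATF3-Ctrl and at 25 (50%) in ATF3-CPT, counting a gene when a peak centre lay within 1 kb of its TSS. By the same count, 31.9% of all protein-coding genes had a peak in ATF3-Ctrl and 44.8% in ATF3-CPT. With this 1 kb window the histone shares were thus somewhat above the shares of all genes, and no test was made. Within 500 bp they were 28% in ATF3-Ctrl and 42% in ATF3-CPT, against 27.7% and 39.3%. Within 2 kb they were 54% and 58%, against 35.7% and 50.3%, so the gap in ATF3-Ctrl depended on the window. Since divergent genes share peaks, the 20 genes counted at 1 kb rested on 15 distinct peaks and the 25 genes on 23. No histone gene had a peak in ATF3-KO, in which 6.68% of all protein-coding genes had one. The p53 antibody gave the opposite picture. In p53-CPT 10 histone genes (20%) had a peak against 2.04% of all protein-coding genes, and in p53-KO, from cells whose genotype lacks p53, 9 (18.0%) had a peak against 0.858%. Most of these p53-antibody peaks held at least 1 stretch of 36 bases that recurs in the interval, though never over the whole peak. Without such peaks 2 of 50 histone genes had one in each p53 library, a count for which the share of all genes under the same filter was not computed.

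**Figure D1:**
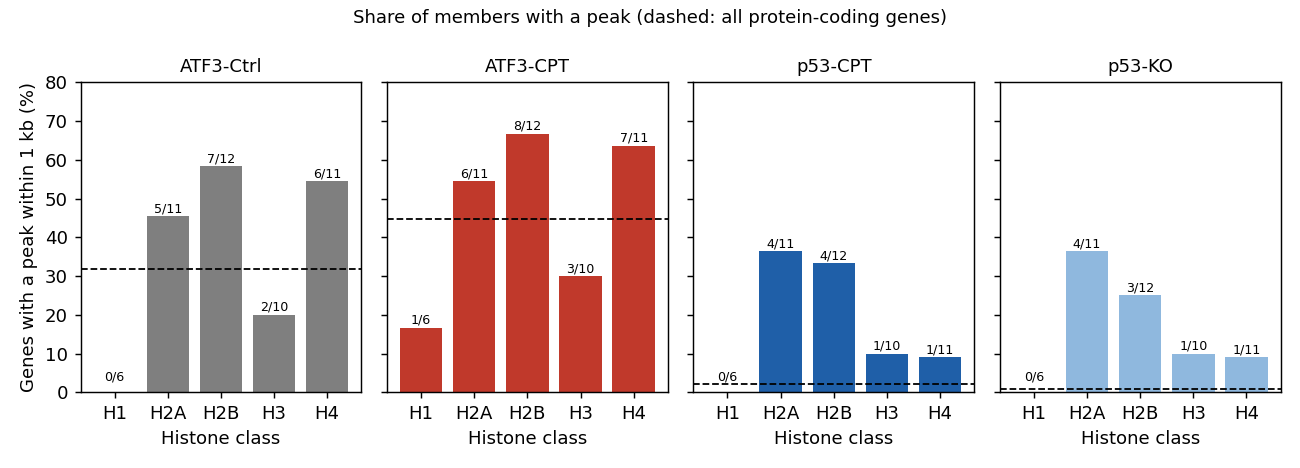
Percentage of histone genes of each class with a peak centre within 1 kb of the TSS in ATF3-Ctrl, ATF3-CPT, p53-CPT and p53-KO, with the number of genes over each bar and the share of all protein-coding genes as a dashed line. Linker histone genes were at or under the dashed line in every panel, and the H2A, H2B, H3 and H4 bars of both p53 panels were above it. ATF3-KO is not drawn because no member had a peak.

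Counts by class can be read against the 31.9% (ATF3-Ctrl) and 44.8% (ATF3-CPT) of all protein-coding genes with a peak. The classes are small, and a difference between them was not tested. In ATF3-Ctrl, peaks were found at 6 of 11 H4 genes, 7 of 12 H2B genes, 5 of 11 H2A genes and 2 of 10 H3 genes, and at 0 of 6 H1 genes. In ATF3-CPT the numbers were 7 for H4, 8 for H2B, 6 for H2A, 3 for H3 and 1 for H1. The H2A and H2B counts overlap, because 8 divergent pairs of the cluster have TSSs 979 bp apart or closer and 7 of these pairs join an H2A and an H2B gene at 170 to 251 bp. The H4 genes encode the core histone that pairs with H3, and the 3 highest peaks of each ATF3 library were at H4 genes.

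H4C5 had the highest ATF3-CPT value of the cluster. Its normalized tag count was 22.4 in ATF3-Ctrl (95% interval 15.0 to 32.2) and 58.9 in ATF3-CPT (47.4 to 72.3), and no peak was listed in ATF3-KO, p53-CPT or p53-KO. The 2 ATF3 intervals do not overlap. The ATF3-Ctrl value exceeded 84.3% and the ATF3-CPT value 96.4% of all promoter peaks in the same library. The peak was centred 138 bp upstream of the TSS in ATF3-Ctrl.

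H4C8 was the histone gene with listed peaks from both antibodies and a high ATF3 value. Its ATF3 peak, centred 22 bp upstream of the TSS in ATF3-Ctrl and 4 bp upstream in ATF3-CPT, had normalized tag counts of 23.9 (16.3 to 34.0) and 42.7 (33.0 to 54.3). HIST1H4B had 24.7 (16.9 to 34.9) in ATF3-Ctrl and 41.4 (31.9 to 52.9) in ATF3-CPT at the downstream core shown above. HIST1H4B also had a weaker peak at its promoter, 122 bp upstream of the TSS in ATF3-Ctrl, with 8.5 (4.2 to 15.2) and 9.7 (5.4 to 16.0). For both of these H4 genes the intervals of the ATF3-Ctrl and ATF3-CPT values overlap at the strong peak.

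The remaining H4 genes were lower. H4C4 had 11.6 in ATF3-Ctrl and 12.9 in ATF3-CPT within 13 bp of its TSS, and H4C3 had 7.0 and 7.1. H4C12 had a peak of 7.7 in ATF3-Ctrl alone, and H4C1 (7.1) and H4C11 (4.5) had one in ATF3-CPT alone. H4C7, H4C9 and H4C13 had no peak in any list.

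Of the H3 genes, H3C2 alone had a high value. It had 20.1 (13.1 to 29.4) in ATF3-Ctrl, 154 bp upstream of the TSS, and 31.7 (23.5 to 41.9) in ATF3-CPT, and these intervals overlap. H3C12 had 7.7 in ATF3-Ctrl from a peak 505 bp upstream of its TSS that lay in the coding sequence of the neighbouring H2BC17. In ATF3-CPT, H3C1 had 7.1 and H3C10 had 5.8. H3C3, H3C4, H3C6, H3C7, H3C8 and H3C11 had no peak in any list.

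H2A and H2B, which pair as dimers in the nucleosome, had modest ATF3 values throughout. H2BC6, an H2B gene, had the highest of these in ATF3-Ctrl with 15.4 (9.4 to 23.9), and it had 12.3 (7.4 to 19.2) in ATF3-CPT. The promoter shared by H2AC15 and H2BC15 had 13.1 (7.6 to 21.0) and 16.2 (10.5 to 23.9). A peak 769 bp downstream of the H2BC4 TSS, which also falls within 1 kb of H2AC6, had 10.0 and 12.3. H2AC14 and H2BC14 had 10.0 in ATF3-Ctrl and 7.1 in ATF3-CPT. H2BC11 and H2AC11 had a peak of 11.0 in ATF3-CPT alone.

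Of the other H2A and H2B genes, H2BC13 and H2AC13 had 6.2 in ATF3-Ctrl and 7.8 at the overlapping peak in ATF3-CPT. Another ATF3-CPT peak at these genes had 9.7. H2AC17 and H2BC17 shared the ATF3-Ctrl peak of H3C12. H2BC12 had 7.0 in ATF3-Ctrl, 803 bp downstream of the TSS, and 6.5 in ATF3-CPT at the promoter it shares with H2AC12. H2BC5 had 9.1 in ATF3-CPT from a peak that H1-4 shared, and this was the value for the H1 class. H2AC4, H2AC7, H2AC16, H2BC3, H2BC10, H1-1, H1-2, H1-3, H1-5 and H1-6 had no peak in any list, which makes 19 such members in all.

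**Figure D2:**
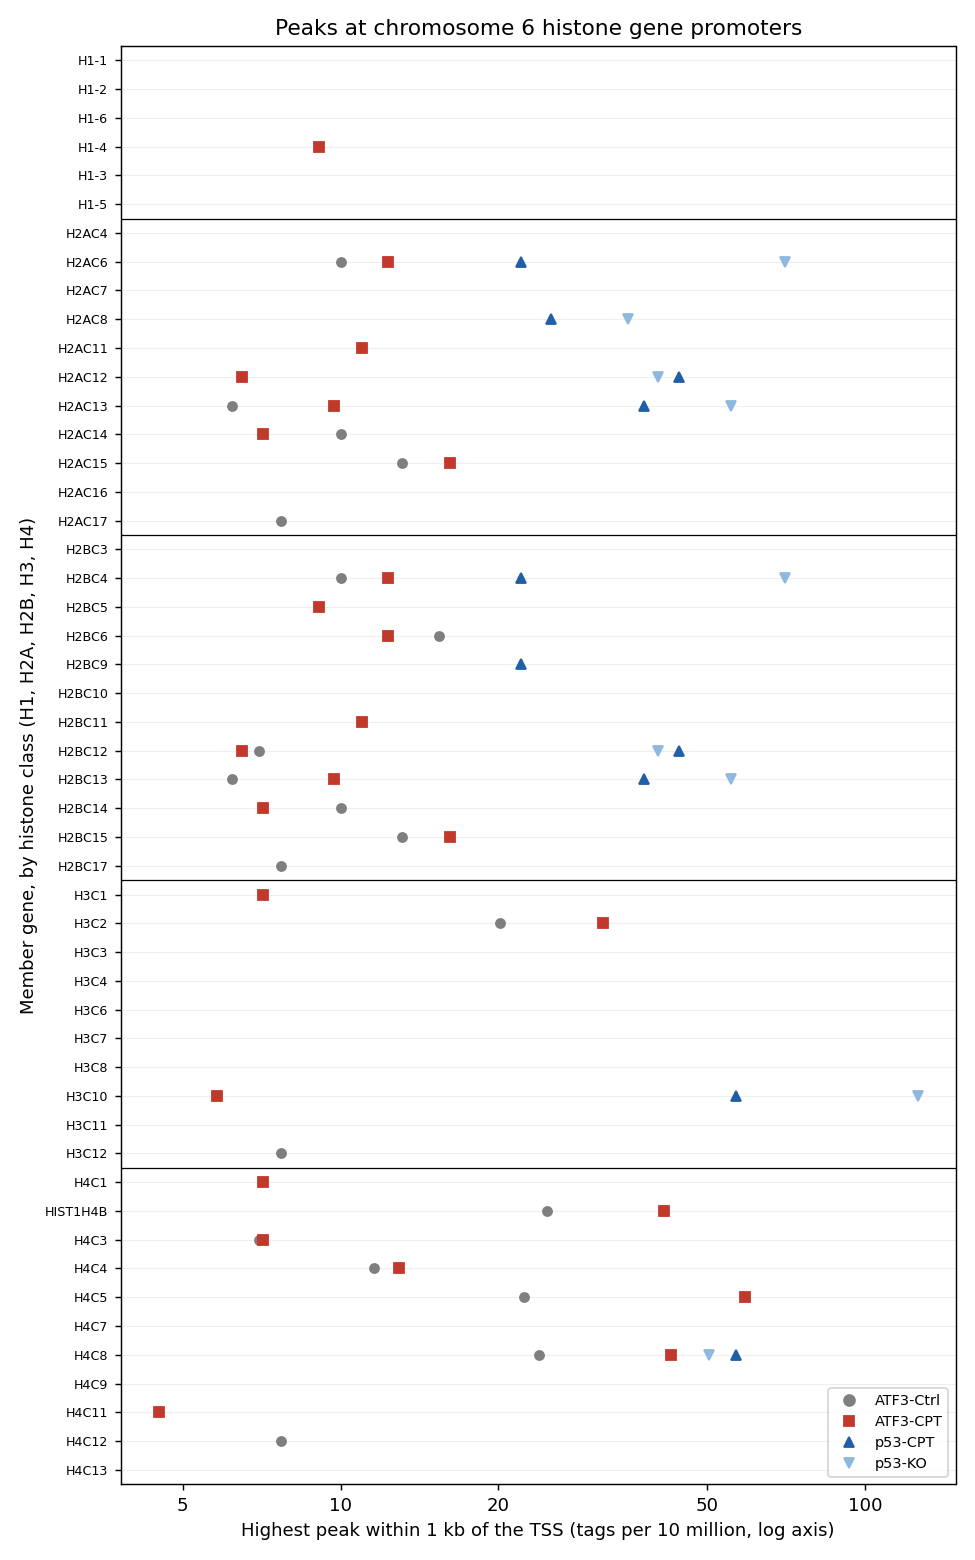
Highest normalized tag count of a peak within 1 kb of the TSS for each of the 50 histone genes (x axis, tags per 10000000, log scale), by class from top to bottom, with 1 symbol per library. Rows without a symbol had no listed peak, and the ATF3 symbols at 20 or more belong to H3C2, HIST1H4B, H4C5 and H4C8. p53-antibody symbols all lie at 22.1 or higher, and the tag limits of those smaller libraries were 22.1 (p53-CPT) and 30.2 (p53-KO).

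The 4 histone sites with a normalized tag count of 20 or more in either ATF3 library were those with an exact core. In ATF3-Ctrl, the 200 bases around the peak centre held TGACGTCA in 4 of 15 member peaks, with values from 20.1 to 24.7, and the 11 peaks without it ranged from 6.2 to 15.4. In ATF3-CPT, 5 of 23 held it, with a range from 6.5 to 58.9, and the 18 without it ranged from 4.5 to 16.2. The groups do not overlap in ATF3-Ctrl, but the H2BC12 and H2AC12 core, at 6.5, lies among the peaks without a core in ATF3-CPT. Across all promoter peaks 6.22% held the core in ATF3-Ctrl and 4.63% in ATF3-CPT. The medians were 18.5 with and 10.0 without the core in ATF3-Ctrl, and 31.7 and 10.4 in ATF3-CPT, so higher values at cores were not particular to histone genes.

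An exact core was not always under a peak. Of the 7 cores, 4 had an ATF3-Ctrl peak centred within 100 bp (57.1%) and 5 an ATF3-CPT peak (71.4%). Of the 709 cores within 1 kb of any protein-coding TSS, 57.3% and 66% had one. The cores of the H2AC14 and H2BC14 promoter and of H2AC16 had none in either library. In ATF3-KO, 13.8% of the 709 cores and 0 of the 7 had a peak.

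The AP-1 core TGACTCA was searched on both strands as well. It was found around 0 of 15 member peaks in ATF3-Ctrl and 3 of 23 in ATF3-CPT, those of H3C1 and H4C1 (7.1), H4C3 (5.2) and H4C11 (4.5), against 7.51% and 10.7% of all promoter peaks. TGACGT, which overlaps the ATF/CRE core, was found around 5 of 15 and 6 of 23 member peaks, the additional site in both being the H2AC15 and H2BC15 promoter. The share over all promoter peaks was 17% and 14.2%.

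The promoters themselves, taken from 250 bases before to 50 after each TSS, were unlike the average promoter in their letters. The CCAAT box was present in 43 of 50 (86%) against 35.8% of all protein-coding promoters, including 10 of 10 H3 and 5 of 11 H4 promoters. The octamer ATTTGCAT, which OCT factors recognize, was present in 18 of 50 (36%) against 1.66%, and these were 9 of 11 H2A, 8 of 12 H2B and 1 of 10 H3 promoters. TGACGTCA was present in 8 of 50 (16%) against 2.29%, and TGACTCA in 0 of 50 against 3.97%. All motifs were searched on both strands, divergent promoters share letters, and a match is a description of the sequence only.

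**Figure D3:**
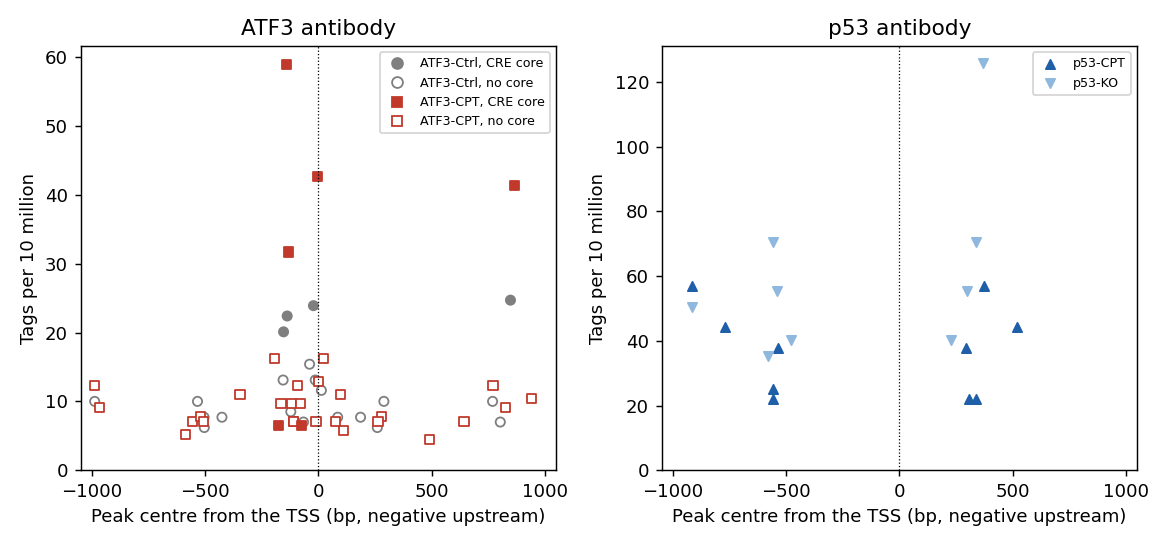
Normalized tag count (y axis, tags per 10000000) of each peak against the distance of its centre from the TSS (x axis, bp), for ATF3 on the left and p53 antibody on the right. A peak near 2 genes is drawn once for each, and filled ATF3 symbols have the exact TGACGTCA core within 100 bp. The highest ATF3 symbols lie just upstream of the TSS except for HIST1H4B, and no p53-antibody symbol lies within 200 bp of a member TSS. The share of all p53-antibody promoter peaks within 200 bp was not computed.

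The comparison of ATF3-CPT with ATF3-Ctrl asked how binding differed after DNA damage. Of the 15 member peaks in ATF3-Ctrl, 12 overlapped an ATF3-CPT peak (80%), against 81.6% of all promoter peaks. Of the 23 in ATF3-CPT, 12 overlapped an ATF3-Ctrl peak (52.2%), against 52.3%. By gene, 16 members had a peak in both libraries. H4C12, H3C12, H2AC17 and H2BC17 had one in ATF3-Ctrl alone, all at 7.7, and 9 members had one in ATF3-CPT alone, with values from 4.5 to 11.0. Of the 11 ATF3-CPT peaks that overlapped no ATF3-Ctrl peak, 7 were above the ATF3-Ctrl tag limit of 6.95. The other 4 could have gone unlisted at that depth. So could peaks just above the limit, such as those at 7.1 (3.6 to 12.7) of H3C1 and H4C1, of H2BC4 and H2AC6 and of H2BC5. The highest of the 11 was 11.0, and the absence of a listed peak was not tested.

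Tags at each shared site were compared by a conditional exact binomial test with Benjamini-Hochberg adjustment over all 27105 shared sites, which compares these libraries and not the conditions. Of the 12 shared histone sites, 3 (25.0%) were called higher in ATF3-CPT, against 44% of all shared sites and 22.3% of those at promoters. None was called lower, against 2.81%, and 0 of the 9 others had an unadjusted p under 0.05. H4C5 rose 2.63-fold (95% interval 1.71 to 4.14, adjusted p = 1.1e-05 by the exact binomial test). H4C8 rose 1.78-fold (1.15 to 2.83, adjusted p = 0.019 by the exact binomial test) and the downstream HIST1H4B site 1.68-fold (1.08 to 2.65, adjusted p = 0.04 by the exact binomial test). The H3C2 ratio was 1.58 (0.96 to 2.65, adjusted p = 0.12 by the exact binomial test). At the 8 sites without a core, ratios ran from 0.71 at H2AC14 and H2BC14 to 1.26 at H2BC13 and H2AC13, and every interval included 1.

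Most of these ratios were below the shift of the library as a whole. The median ratio was 1.79 over all shared sites (0.84 on the log2 scale), 1.32 over shared promoter sites and 1.23 over the 12 histone sites. Relative to the median of all shared sites, H4C5 stood 0.55 higher on the log2 scale, while H4C8 was at -0.01, HIST1H4B at -0.10 and H3C2 at -0.19. With the libraries scaled to that median, 0 histone sites were called in either direction, against 7.86% of all shared sites called higher and 10.4% lower. At shared promoter sites with the core under the ATF3-Ctrl peak, the median ratio was 1.86 over 378 sites, and it was 1.29 over 4693 sites without the core. The 4 histone sites with the core had a median ratio of 1.73 and the 8 without had 1.13.

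**Figure D4:**
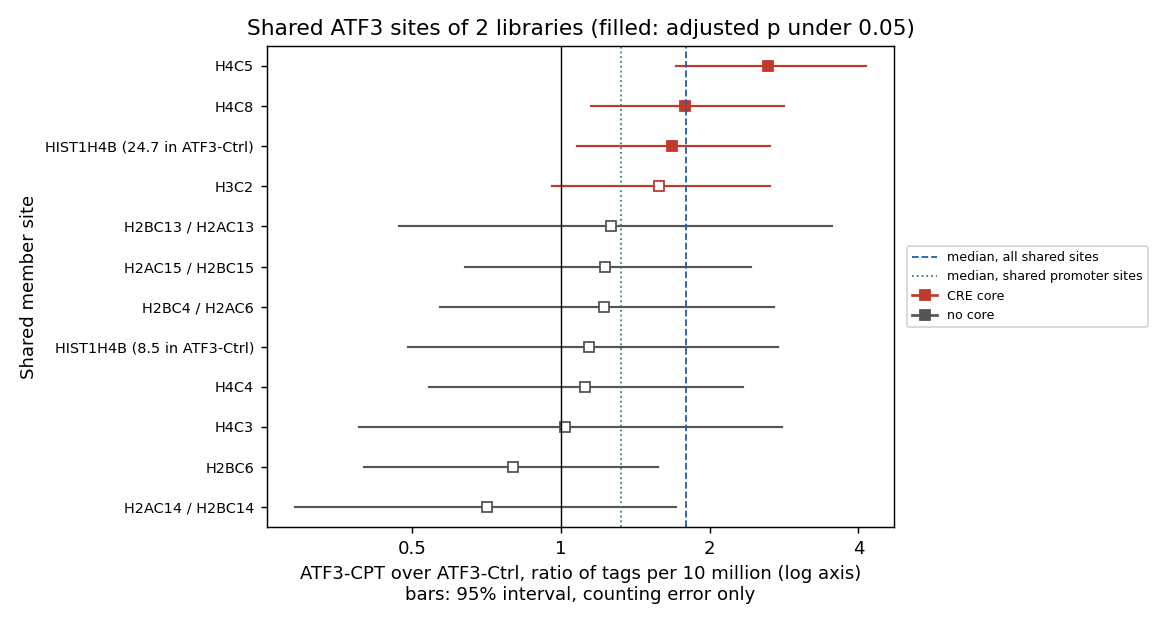
Ratio of ATF3-CPT to ATF3-Ctrl at the 12 shared histone sites (x axis, log scale, 95% intervals from counting error only), with filled squares where the adjusted p was under 0.05. The 4 sites with the exact core (red) occupy the top, from 1.58 to 2.63, and the dashed and dotted lines mark the medians of all shared sites (1.79) and of shared promoter sites (1.32).

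No site was shared between ATF3-KO and ATF3-Ctrl at the histone genes, so no fold change could be computed. None of the 15 ATF3-Ctrl and 23 ATF3-CPT peaks overlapped an ATF3-KO peak, compared with 15.7% and 10.5% of all promoter peaks. Of those peaks, 9 and 13 were above the ATF3-KO tag limit of 8.58 on the normalized scale, and the others could have gone unlisted at that depth. This limit is no sharp cut, since ATF3-KO listed peaks down to 6.2. A peak just above it, such as 9.1 (5.0 to 15.2) at H1-4 and H2BC5 in ATF3-CPT, could also have gone unlisted. Limited to peaks at or above 8.58, a choice made after the values were seen, 12 histone genes (24%) had a peak in ATF3-Ctrl and 16 (32%) in ATF3-CPT, against 20.5% and 31.3% of all protein-coding genes. Elsewhere in the same interval the ATF3-KO list was not empty, since ABT1, which is no histone gene, had normalized tag counts of 71.8, 85.4 and 34.3 in ATF3-Ctrl, ATF3-CPT and ATF3-KO.

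The 7 peaks of p53-CPT and the 6 of p53-KO overlapped no called ATF3 peak at the histone genes. Some lay close to one. At H3C10 the ATF3-CPT peak ended at position 27778001 and the p53-CPT peak began at 27778042. Of all p53-CPT promoter peaks, 26.6% overlapped an ATF3-Ctrl and 36.1% an ATF3-CPT peak. For p53-KO promoter peaks these shares were 10.8% and 11.4%, so 0 of 6 is near its background. None of the 13, among which 6 sites are counted in both libraries, was centred within 200 bp of a member TSS. The share of all p53-antibody promoter peaks within that distance was not computed. The centre fell in a coding sequence for 4 of 7 in p53-CPT and 4 of 6 in p53-KO, against 5.7% and 3.8% of all promoter peaks. These were the coding sequences of H3C10, H2BC4 and H2BC13 in both libraries, of H2BC9 in p53-CPT and of H2BC12 in p53-KO. Centres in coding sequence were not particular to the p53 antibody. They made up 4 of 15 ATF3-Ctrl and 5 of 23 ATF3-CPT histone peaks, against 4.3% and 4.2% of all promoter peaks.

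H3C10 had the highest p53-antibody value. It had 56.8 (95% interval 33.7 to 89.7) in p53-CPT and 125.9 (81.5 to 185.9) in p53-KO, 372 and 367 bp downstream of the TSS, so the higher value was from the p53-KO cells. In the body of H2BC4, which also counts for H2AC6, the values were 22.1 (8.9 to 45.5) and 70.5 (38.6 to 118.3), 340 bp downstream in both. In H2BC13, which also counts for H2AC13, they were 37.9 (19.6 to 66.1) and 55.4 (27.7 to 99.2). The intervals of the libraries overlap at each of these genes.

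At the other sites the libraries were closer. Upstream of H4C8, about 915 bp from the TSS in p53-KO, the values were 56.8 (33.7 to 89.7) and 50.4 (24.2 to 92.6). At H2BC12 and H2AC12 they were 44.2 (24.1 to 74.1) and 40.3 (17.4 to 79.4), from peaks centred 518 and 229 bp downstream of the H2BC12 TSS that overlap only at their edges. At H2AC8 they were 25.2 (10.9 to 49.7) and 35.3 (14.2 to 72.7), and H2BC9 had 22.1 in p53-CPT alone.

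None of the 6 sites shared by the p53 libraries was called in either direction, against 0.0713% of all 5611 shared sites called higher in p53-CPT and 12.1% called lower. By the exact binomial test, 2 of the 6 had an unadjusted p under 0.05, with ratios of p53-CPT to p53-KO of 0.45 at H3C10 (0.23 to 0.86, adjusted p = 0.074) and 0.31 at H2BC4 and H2AC6 (0.11 to 0.83, adjusted p = 0.076). With 7 to 25 tags at each peak, intervals were wide, and at H4C8 the ratio of 1.13 ran from 0.49 to 2.73. At histone genes 6 of 7 p53-CPT peaks (85.7%) overlapped a p53-KO peak, compared with 33.0% of all promoter peaks. In the other direction the shares were 6 of 6 and 73.4%. A p53 motif with at most 3 mismatches was found around 0 of 7 and 0 of 6 histone peaks, against 17.5% and 1.9% of all promoter peaks of p53-CPT and p53-KO.

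Repeated sequence was present under several of these peaks, both in coding sequence and outside it. Any 36-base word of the peak that recurred elsewhere in the same interval was counted. This held for 5 of 7 p53-CPT and 4 of 6 p53-KO peaks, the exceptions being H3C10 and H2AC8. It held for 4 of 15 ATF3-Ctrl peaks and 4 of 23 ATF3-CPT peaks, none of which was a site with the exact core. The p53-CPT and p53-KO peaks were 318 and 310 bp long and the ATF3-Ctrl and ATF3-CPT peaks 126 and 124 bp. A p53-antibody peak thus holds more words of which 1 may recur. Every word recurred in 3 ATF3-Ctrl peaks (H2AC14, H4C12 and H2AC13), 2 ATF3-CPT peaks (H2AC14 and H2AC13) and 0 p53-antibody peaks. The highest share of recurring words was 30.3% in p53-CPT and 46.0% in p53-KO. The read length and the handling of reads with several matches were not given in the sources used here, so values at H2AC14, H4C12, H2AC13 and the H2B bodies are uncertain, and the part of repeated sequence in them was not tested. Without peaks that hold a recurring word, a choice made after the values were seen, 12 histone genes had a peak in ATF3-Ctrl, 20 in ATF3-CPT, 2 in p53-CPT and 2 in p53-KO. The words were sought in this interval alone, so no share of all genes stands beside these counts.

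Histone genes with the same symbol prefixes outside the interval numbered 19. An ATF3 peak was found at 5 of them in ATF3-Ctrl (26.3%) and at 12 in ATF3-CPT (63.2%), and at 0 in ATF3-KO. The shares of all protein-coding genes were 31.9%, 44.8% and 6.68%. Here too the highest values were at H4 genes, on chromosome 1. H4C14 had 37.1 and 24.6 in ATF3-Ctrl and ATF3-CPT, and H4C15 had 30.1 and 31.7, all within 123 bp of the TSS and none with the exact core within 100 bp of the centre. Among these 19 the p53 antibody gave peaks at H2BC12L alone, on chromosome 21, with 28.4 in p53-CPT and 35.3 in p53-KO, centred 223 and 230 bp downstream of the TSS as in the H2B bodies of the cluster.

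Genes for replication-independent and variant histones had an ATF3 peak at 5 of 11 in ATF3-Ctrl (45%) and 7 of 11 in ATF3-CPT (64%). Of all protein-coding genes, 31.9% and 44.8% had one, and these small lists were not tested. H3-3B, which encodes H3.3, had 22.4 and 73.8. The p53 antibody gave peaks at 2 of these 11 genes in p53-CPT (18.2%), H3-3B with 25.2 and MACROH2A1 with 18.9, and at 0 in p53-KO. Of 13 genes for proteins that transcribe histone genes or process their mRNA, 7 had a peak in ATF3-Ctrl (54%) and 10 in ATF3-CPT (77%). LSM10, a subunit of the U7 snRNP that cleaves histone mRNA, had 16.2 and 34.9, and ZNF473, a zinc finger protein of the same process, had 10.8 and 33.0 and also 10.1 in ATF3-KO. NPAT, the activator of histone gene transcription in S phase, had 7.7 and 8.4. The p53 antibody gave no peak at these 13 genes. With 2.04% (p53-CPT) and 0.858% (p53-KO) of all protein-coding genes having one, 0 of 13 is near the background. The 23 other protein-coding genes of the interval had an ATF3 peak at 6 in ATF3-Ctrl, 10 in ATF3-CPT and 3 in ATF3-KO, and a p53-antibody peak at 1, HMGN4, in both p53 libraries.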

How the data were processed

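Reads were mapped to hg19 by the authors with BWA 0.6.1, and peaks of every library were called on their own with findPeaks of HOMER 4.1 (versions from the submitters' processing notes). Per the file headers, a peak needed a false discovery rate of 0.001, and a fold of 4 with a p-value of 1e-04 over the local region of 10000 bp. The main value was the deposited normalized tag count, a peak signal scaled to 10000000 tags. The deposited score counts at most 1 tag per position, and the deposited focus ratio (a fraction), clonal fold and p-value columns were not used. Peak centres were assigned to the gene-level TSS of GENCODE release 44 on GRCh37 (Python 3.11.15). Tags were recovered from the normalized counts (100.0% lay within 0.1 of a whole number) and 2 overlapping peaks were compared by a two-sided conditional exact binomial test against total tags, with Benjamini-Hochberg adjustment over all shared sites and a threshold of 0.05. A site was an ATF3-CPT (or p53-CPT) peak with the highest overlapping peak of the other library. With 1 library per group there was no test between conditions. The members, gene lists and motifs were chosen with earlier results of these data known. Named were all members with a p53-antibody peak, the 3 highest of each class per ATF3 library and every called site, and others by value to account for all members. Alternatives covered distance, overlap, TSS choice, score, scaling and removal of knockout peaks.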

Additional observations from a re-analysis of the deposited data

How the results depend on the processing

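Of 64 recalculated values for 11 counts, 51 lay within 1.5 times the reported count. Many of these 51 were counts of 0 that stayed at 0, and some of them could not move. ATF3-KO and ATF3-Ctrl shared 0 member sites, so nothing could be called between them. With a findPeaks score of at least 20, the numbers of histone genes with a peak were 5 (ATF3-Ctrl), 7 (ATF3-CPT), 0 (p53-CPT) and 0 (p53-KO), and the shares of all protein-coding genes were 9.32%, 21.6%, 0.377% and 0.208%. With centres within 500 bp, 4 members (8%) had a peak in p53-CPT and 5 (10%) in p53-KO, against 1.41% and 0.466% of all protein-coding genes. With centres within 2 kb, 27 members (54%) had one in ATF3-Ctrl and 29 (58%) in ATF3-CPT, against 35.7% and 50.3%. For p53-CPT and p53-KO the 2 kb counts were 12 (24%) and 10 (20%), against 2.89% and 1.47%. Removing peaks that overlap p53-KO left 1 member in p53-CPT, H2BC9. Scaling to the median ratio gave 0 sites called higher in ATF3-CPT in place of 3. Using the score in place of tags gave 2, H4C5 and H4C8. Among alternatives added after the data were seen, the ATF3-KO limit gave 12 (ATF3-Ctrl) and 16 (ATF3-CPT) genes, and removing peaks with a recurring 36-base word gave 12 (ATF3-Ctrl), 2 (p53-CPT) and 2 (p53-KO). The counts for ATF3-KO were 0 under every alternative. The 500 bp distance, score minimum and removal settings use fewer peaks by construction, while the 2 kb distance can only add peaks. Median scaling divides every ratio by the library-wide median of 1.79. For the score in place of tags, the cause was not tested. No paired analysis was possible because each condition had 1 library, which also left no replicate to leave out. Depth limits the p53 libraries most, since 3 tags equal a normalized tag count of 9.46 (p53-CPT) and 15.11 (p53-KO).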
